A study of Mus musculus with 8 samples.

Results

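The genes described here are the cytochrome P450s of families 1 to 4, taken as every protein-coding gene of the GENCODE M21 annotation whose symbol opens with Cyp, a family number from 1 to 4, a subfamily letter and a gene number. The rule found 80 such genes in 21 subfamilies, among the 52551 rows of each count file. They were measured in 4 PiZ/Chop-/- and 4 PiZ liver libraries from male C57BL/6 mice aged 6 weeks. All mice of both groups carried the PiZ transgene, which makes the Z form of human alpha-1 antitrypsin (SERPINA1), a protein that misfolds and collects in the endoplasmic reticulum of hepatocytes. PiZ/Chop-/- mice lacked Chop as well, the gene Ddit3, which encodes CHOP, a stress-induced transcription factor of the C/EBP family. The labels name neither the promoter that drives the transgene nor the part of Ddit3 that was deleted. Wild-type livers, which the design text names too, were not analysed here. RNA was read at its 3' end by QuantSeq, so a value in CPM, the read count per 1000000 counts of a library adjusted by its TMM factor, is not divided by gene length.

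Cytochrome P450s are haem enzymes, most of them anchored in the endoplasmic reticulum, that insert an oxygen atom into their substrates with electrons from the reductase Por. Members of families 1 to 3 clear drugs, pollutants and steroids, and several Cyp2c and Cyp2j enzymes form epoxides of arachidonic acid. Family 4 hydroxylates fatty acids and leukotrienes at the end of the chain. In mouse liver their transcription depends on the receptors CAR (Nr1i3), PXR (Nr1i2), Ahr and Ppara, on hepatocyte factors such as Hnf4a, and, for sex-biased members, on the pattern of growth hormone release.

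Libraries held 1650260 to 3064385 counts, and no label ties a library to its own mouse; the p-values therefore measure the spread among libraries, which may be technical. Ddit3 had 8, 3, 5 and 9 counts in PiZ/Chop-/- libraries 1 to 4, against 311, 290, 595 and 180 in PiZ libraries 1 to 4. On the log2 scale Ddit3 fell by 5.60 (SE 0.34, edgeR adjusted p = 2.35e-07); its permutation p, exact and two-sided, was 0.0286, the smallest that these group sizes allow. SERPINA1, the transgene, stood at 620 ± 70.9 CPM in PiZ/Chop-/- and 1451 ± 374 CPM in PiZ livers (SD, n = 4 each; log2 fold change -1.23, SE 0.22, edgeR adjusted p = 0.00873), a call lost when PiZ/Chop-/- library 3 was left out (0.0575). Xist, the marker of a female sample, ran from 0 to 0.993 CPM in PiZ/Chop-/- and from 0 to 1.85 CPM in PiZ livers. Y-linked Ddx3y ran from 93.6 to 131 CPM in PiZ/Chop-/- and from 86.4 to 121 CPM in PiZ livers. Summed levels of the 6 hepatocyte markers overlapped, at 22659 to 31224 CPM in PiZ/Chop-/- and 22965 to 32230 CPM in PiZ livers. None of the markers of other liver cells passed the test. All 5 tested of 7 stellate cell markers lay below 0 (summed level of the list 165 to 296 CPM in PiZ/Chop-/- and 267 to 367 CPM in PiZ livers), as did all 7 macrophage markers (463 to 613 CPM in PiZ/Chop-/- and 607 to 980 CPM in PiZ livers). Endothelial markers summed to 210 to 271 CPM in PiZ/Chop-/- and 156 to 263 CPM in PiZ livers, and cholangiocyte markers, 2 of 6 tested, to 19.9 to 50.6 CPM in PiZ/Chop-/- and 29.4 to 47.9 CPM in PiZ livers. The 6 lymphocyte markers, all too low to be tested, summed to 0.932 to 2.3 CPM in PiZ/Chop-/- and 2.46 to 2.91 CPM in PiZ livers. No marker on these lists was at 0 in every library, and their part in the results was not tested.

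Of the 80 genes, 58 had at least 1 count and 46 had enough counts to be tested, in 14 subfamilies. Among the 46, the fit called 2 higher and 1 lower in PiZ/Chop-/- livers, at an edgeR p below 0.05 after Benjamini-Hochberg adjustment over 8669 genes. Cyp2c38 and Cyp4v3 were higher and Cyp3a44 was lower. Over all tested genes 1.03% were called (0.335% higher and 0.692% lower), against 6.52% of the 46 (4.35% higher and 2.17% lower). In bulk tissue, fewer cells of a type and less RNA per cell cannot be told apart. Of the 46, 42 reached the level the filter on low counts asks for, 4.84 CPM, in all 8 libraries. Cyp2c38 reached it in the PiZ/Chop-/- libraries alone and Cyp3a44 in the PiZ libraries alone, so these genes could only enter the test by differing.

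Below the calls lay a broader tilt of small differences. The log2 fold change was above 0 in 33 of the 46 genes (71.7%), against 49.8% of all tested genes, and its median was 0.26, against -0.0016 over all tested genes. An unadjusted p below 0.05 was found for 12 members on the higher side (26.1%) and 4 on the lower side (8.7%), where all tested genes gave 6.29% and 6.85%. The groups did not overlap in 9 members (19.6%), against 7.88% of all tested genes; 6 of them were higher (13%, against 3.66%) and 3 lower (6.52%, against 4.22%). Cyp2c23, Cyp2c38, Cyp2d22, Cyp2j5, Cyp4f15 and Cyp4v3 were higher in every PiZ/Chop-/- library, and Cyp2a22, Cyp2b9 and Cyp3a44 were lower in every one. With scaling by library size alone the groups overlapped for Cyp2d22 and Cyp4f15 and no longer did for Cyp2b10, lower in every PiZ/Chop-/- library, which made 4 higher and 4 lower. The members share libraries and in part their regulation, so these shares are a description and carry no test.

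**Figure D1:**
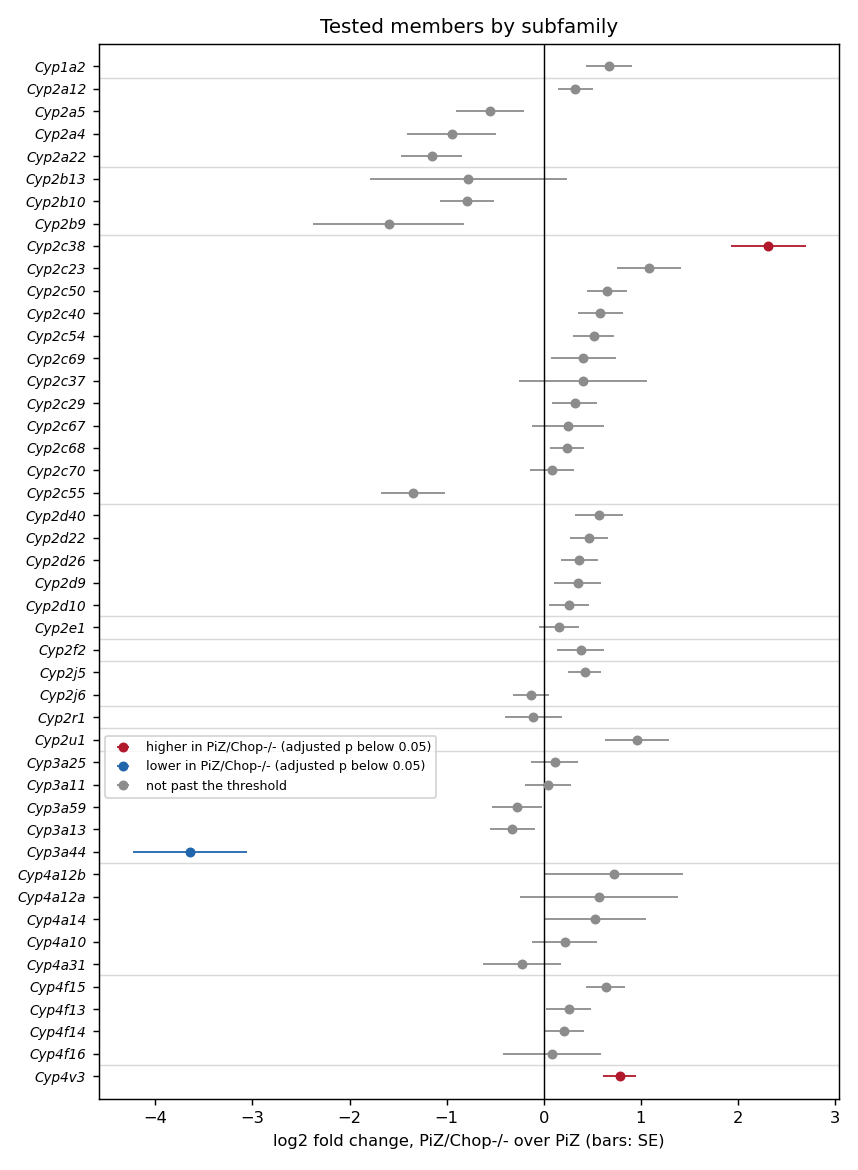
Log2 fold change of each of the 46 tested genes, PiZ/Chop-/- over PiZ, with bars of ± 1 SE from the edgeR fit (n = 4 libraries each), arranged by subfamily; coloured points mark calls. 33 points lie above 0 and 13 below, and the largest distances from 0 are those of Cyp3a44 (-3.65) and Cyp2c38 (2.31).

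The summed level of all 80 genes was 15333, 14163, 14158 and 14295 CPM in PiZ/Chop-/- libraries 1 to 4, against 9429, 13158, 13348 and 12499 CPM in PiZ libraries 1 to 4. Every PiZ/Chop-/- library thus lay above every PiZ library, but PiZ library 1 stood well below the rest of its group. The means were 14487 ± 567 CPM in PiZ/Chop-/- and 12108 ± 1823 CPM in PiZ livers (SD, n = 4 each), a ratio of 1.2, which was 1.11 without PiZ library 1. With library size as the only scaling the groups overlapped, at 13441 to 14680 CPM in PiZ/Chop-/- and 9402 to 13767 CPM in PiZ livers. PiZ library 1 was the lowest of its group for 23 of the 46 tested genes, where it was the lowest for 24.7% of all tested genes.

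The gene with the largest call on the higher side was Cyp2c38, an arachidonic acid epoxygenase. Its level was 12.5, 16.7, 8.94 and 11.6 CPM in PiZ/Chop-/- libraries 1 to 4, against 1.23, 2.91, 2.57 and 2.85 CPM in PiZ libraries 1 to 4. The lowest PiZ/Chop-/- library stood above the highest PiZ library. It averaged 12.4 ± 3.2 CPM in PiZ/Chop-/- and 2.39 ± 0.788 CPM in PiZ livers (SD, n = 4 each), and rose by 2.31 on the log2 scale (SE 0.39, edgeR adjusted p = 0.00545). These are small counts, 18 to 29 in each PiZ/Chop-/- library and 2 to 8 in each PiZ library. Cyp2c38 (ENSMUSG00000032808) lies on the minus strand at chr19:39389556-39463075 (mm10), between Cyp2c29 and Cyp2c39. Cyp2c39 had 14 counts in all 8 libraries together, and Cyp2c29, a CAR-inducible enzyme, did not pass the test (0.32, SE 0.23, adjusted p = 0.593). No stretch of 75 bases, the read length, in the last 500 bases of its transcripts was shared with another gene. The promoter of Cyp2c38, 250 bases before and 50 after the start on the minus strand at chr19:39463026-39463325 (RefSeq, GRCm38.p6), is shown because it carries the largest rise of the family. It is 82% identical to that of its neighbour Cyp2c29 and 88.6% identical to that of Cyp2c39 over the aligned bases. Capitals mark a TATAAA stretch at position -31 from the start.
Cyp2c38: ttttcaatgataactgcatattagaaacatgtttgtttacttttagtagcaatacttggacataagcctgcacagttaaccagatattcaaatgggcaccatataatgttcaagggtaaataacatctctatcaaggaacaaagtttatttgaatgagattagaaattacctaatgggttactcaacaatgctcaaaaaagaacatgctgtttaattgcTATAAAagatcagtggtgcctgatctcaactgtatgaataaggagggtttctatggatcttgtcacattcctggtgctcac

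Cyp4v3, the mouse counterpart of human CYP4V2, a fatty acid hydroxylase whose loss causes Bietti crystalline dystrophy of the eye, was the other gene called higher. Its level was 152, 172, 185 and 177 CPM in PiZ/Chop-/- libraries 1 to 4, against 81.2, 107, 101 and 110 CPM in PiZ libraries 1 to 4. The groups stood clear of each other, with little spread within either. The means were 172 ± 14.2 CPM in PiZ/Chop-/- and 99.7 ± 12.9 CPM in PiZ livers (SD, n = 4 each), and the log2 fold change was 0.78 (SE 0.17, edgeR adjusted p = 0.0398). The call lay close to the threshold: it was kept without PiZ library 4 (adjusted p = 0.0183) and lost in each of the other fits that left out 1 library (adjusted p from 0.0542 to 0.127), and with library size as the only scaling (0.0936). Cyp4v3 (ENSMUSG00000079057) lies on the minus strand at chr8:45304944-45333216 (mm10).

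Cyp3a44, a female-biased member of the Cyp3a cluster, was the gene called lower. It had 3, 0, 2 and 2 counts in PiZ/Chop-/- libraries 1 to 4, against 33, 20, 18 and 24 counts in PiZ libraries 1 to 4. Every PiZ/Chop-/- library was near the bottom of what these depths can show, and every PiZ library stood above them. The means were 0.83 ± 0.59 CPM in PiZ/Chop-/- and 11.8 ± 6.13 CPM in PiZ livers (SD, n = 4 each), and the log2 fold change was -3.65 (SE 0.59, edgeR adjusted p = 0.00458). The call was kept in every fit that left out 1 library and lost when PiZ libraries 1 and 4, which correlated least with their group, were both left out (-3.06, adjusted p = 0.0509). Cyp3a44 (ENSMUSG00000054417) lies on the minus strand at chr5:145773983-145805874 (mm10), between Cyp3a41a, at 0 in every library, and Cyp3a11. Of the stretches of 75 bases at its 3' end, 17.1% also occur in the pseudogene Cyp3a63-ps, so part of its reads could have been dropped or shared.

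Cyp3a11, the main PXR-inducible Cyp3a enzyme of mouse liver, lies next to Cyp3a44 and was not called. Its level was 401, 692, 844 and 669 CPM in PiZ/Chop-/- libraries 1 to 4, against 562, 522, 609 and 831 CPM in PiZ libraries 1 to 4. The groups overlapped widely (0.05 on the log2 scale, SE 0.23, edgeR adjusted p = 0.957), and this value had the opposite sign when libraries were scaled by size alone (-0.03). The promoters of both genes, with the same window on the minus strand (RefSeq, GRCm38.p6; chr5:145805825-145806124 for Cyp3a44 and chr5:145879805-145880104 for Cyp3a11), are shown because of these adjacent genes the first was called and the other was not; the difference between their changes was not tested. They are 79.9% identical over 284 aligned bases. Capitals mark TATAAA in both, at -122 in Cyp3a44 and -234 in Cyp3a11, and, in Cyp3a11 alone, the HNF4 motif CAAAGTCCA at -109 and the C/EBP-ATF motif TGATGCAA at -99. Aligned to these, Cyp3a44 has C7A in the HNF4 stretch, at -95, and A8G in the C/EBP-ATF stretch, at -84. The Cyp3a11 base is given first, and positions count from the 5' end of each motif. The promoter of Cyp3a44 is closer to that of Cyp3a41a, at 94.3% identity over the aligned bases. Cyp3a41a, Cyp3a41b and Cyp3a16 hold the unchanged HNF4 motif and had no counts in any library. Reads from the 3' end of Cyp3a41a or Cyp3a41b would match both genes and could have been dropped, so the levels of both are unknown. Whether the substitutions in Cyp3a44 bear on the levels was not tested.
Cyp3a44: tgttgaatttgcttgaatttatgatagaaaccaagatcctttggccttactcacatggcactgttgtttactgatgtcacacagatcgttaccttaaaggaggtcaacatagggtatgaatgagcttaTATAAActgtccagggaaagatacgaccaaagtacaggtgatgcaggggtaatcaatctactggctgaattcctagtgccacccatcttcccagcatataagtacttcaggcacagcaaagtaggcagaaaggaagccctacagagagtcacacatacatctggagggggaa
Cyp3a11: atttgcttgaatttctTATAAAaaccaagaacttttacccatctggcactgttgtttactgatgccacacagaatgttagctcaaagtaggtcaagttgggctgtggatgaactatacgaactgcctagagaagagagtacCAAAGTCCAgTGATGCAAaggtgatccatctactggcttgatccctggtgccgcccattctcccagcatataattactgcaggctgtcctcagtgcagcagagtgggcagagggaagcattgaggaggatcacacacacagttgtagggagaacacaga

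The other Cyp3a genes moved little. Cyp3a13 (-0.32, SE 0.23), Cyp3a25 (0.12, SE 0.24) and Cyp3a59 (-0.27, SE 0.26) did not pass, and Cyp3a16, Cyp3a41a, Cyp3a41b and Cyp3a57 had no counts in any library. The 3' ends of Cyp3a41a and Cyp3a41b are alike over all stretches of the read length, so reads from either would match both and could have been dropped. The subfamily summed to 1119 ± 253 CPM in PiZ/Chop-/- and 1173 ± 89.8 CPM in PiZ livers (SD, n = 4 each).

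**Figure D2:**
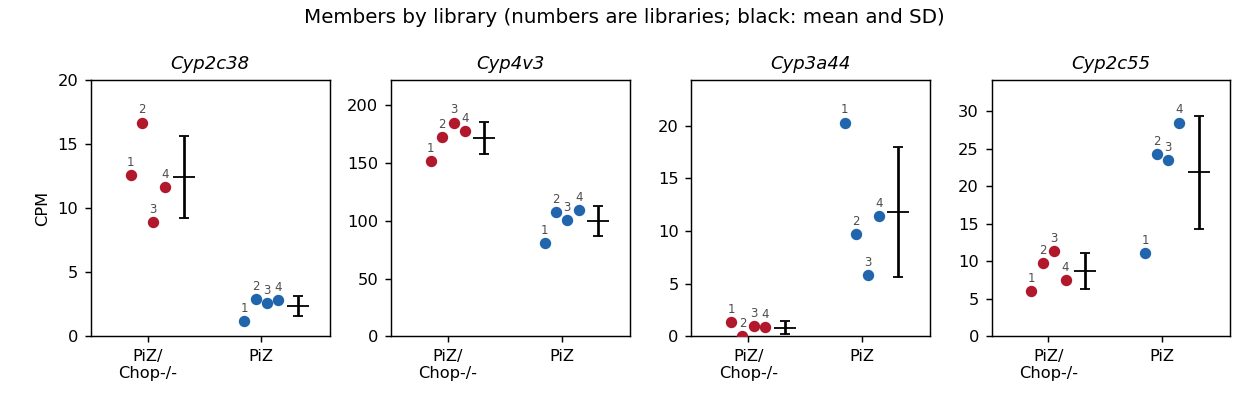
Level in CPM in each library of the 3 called genes, Cyp2c38, Cyp4v3 and Cyp3a44, and of Cyp2c55, with PiZ/Chop-/- left of PiZ; the bar and whiskers give the mean ± SD (n = 4 each). The libraries of the groups do not overlap for the called genes, and for Cyp2c55 the highest PiZ/Chop-/- library (11.4 CPM) lies just above the lowest PiZ library (11.1 CPM).

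The Cyp2c subfamily, with 12 tested genes, leaned towards higher levels in PiZ/Chop-/- livers, with Cyp2c55 against it. Of the 12, 11 had a log2 fold change above 0 and Cyp2c38 alone passed the test. Cyp2c55, which hydroxylates arachidonic acid and is induced through PXR and CAR, stood at 6.04, 9.77, 11.4 and 7.45 CPM in PiZ/Chop-/- libraries 1 to 4, against 11.1, 24.3, 23.5 and 28.5 CPM in PiZ libraries 1 to 4. The difference of -1.35 on the log2 scale (SE 0.33, edgeR adjusted p = 0.0648) missed the threshold with all 8 libraries and passed it without PiZ library 1 (-1.55, adjusted p = 0.021) and with DESeq2, which was run without the filter on low counts (adjusted p = 0.0317). Cyp2c23, an epoxygenase, had 122, 110, 119 and 94.1 CPM in PiZ/Chop-/- libraries 1 to 4, against 18.5, 59.3, 46.6 and 83.5 CPM in PiZ libraries 1 to 4. PiZ/Chop-/- libraries lay close together and above all PiZ libraries, which differed widely among themselves (log2 fold change 1.09, SE 0.33, adjusted p = 0.185). Without PiZ library 4 its value was 1.42 (adjusted p = 0.0392). Cyp2c50 had 144, 181, 227 and 223 CPM in PiZ/Chop-/- libraries 1 to 4, against 123, 111, 98.1 and 161 CPM in PiZ libraries 1 to 4 (0.65, SE 0.21, adjusted p = 0.182), and it too passed without PiZ library 4 (0.82, adjusted p = 0.0403).

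The most abundant Cyp2c transcripts showed no call. Cyp2c29 had 425, 624, 639 and 644 CPM in PiZ/Chop-/- libraries 1 to 4, against 428, 396, 348 and 695 CPM in PiZ libraries 1 to 4. Cyp2c70, which makes the muricholic acids of mouse bile, had 473, 659, 468 and 437 CPM in PiZ/Chop-/- libraries 1 to 4, against 326, 456, 465 and 667 CPM in PiZ libraries 1 to 4 (0.09, SE 0.23, adjusted p = 0.906). In both genes PiZ library 4 was the highest of all 8 libraries. For Cyp2c29 PiZ libraries 2 and 3 lay below every PiZ/Chop-/- library, and for Cyp2c70 they fell inside the PiZ/Chop-/- range. Cyp2c40, Cyp2c54, Cyp2c68, Cyp2c69, Cyp2c67 and Cyp2c37 lay above 0 without passing. Cyp2c summed to 1746 ± 194 CPM in PiZ/Chop-/- and 1393 ± 360 CPM in PiZ livers (SD, n = 4 each), a ratio of 1.25 with overlapping groups. Cyp2c40 had the most shared 3' end of all tested members, 42.6% of its stretches, so its value is the least certain in this respect.

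Cyp2b was the subfamily with the lowest ratio, 0.36, and the sum over its members was lower in every PiZ/Chop-/- library. Its summed level was 43.7, 17.2, 151 and 146 CPM in PiZ/Chop-/- libraries 1 to 4, against 330, 202, 197 and 269 CPM in PiZ libraries 1 to 4. PiZ/Chop-/- libraries 1 and 2 were far below libraries 3 and 4 of the same group, and all were below the lowest PiZ library. Cyp2b9, a steroid-hydroxylating enzyme found mainly in female mouse liver, made up most of the mean sum, with 25.1, 8.62, 124 and 127 CPM in PiZ/Chop-/- libraries 1 to 4, against 287, 168, 167 and 244 CPM in PiZ libraries 1 to 4. No overlap was seen, but the spread within the PiZ/Chop-/- group was wide (71.2 ± 63.2 CPM in PiZ/Chop-/- and 217 ± 59.3 CPM in PiZ livers; log2 fold change -1.60, SE 0.78, adjusted p = 0.441, edgeR). Cyp2b10, the classic CAR target that phenobarbital induces, had 18.1, 8.62, 19.9 and 13.0 CPM in PiZ/Chop-/- libraries 1 to 4, against 24.6, 31.6, 28 and 19.5 CPM in PiZ libraries 1 to 4 (-0.79, SE 0.28, adjusted p = 0.25). Female-biased Cyp2b13 was at most 17.8 CPM and did not pass (-0.78, adjusted p = 0.794), and Cyp2b19 and Cyp2b23 had no counts.

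All 5 Cyp2b promoters hold the C/EBP motif TTGCNNAA (searched on both strands, N being any base), which 23.1% of the 65 members with a promoter sequence and 10.8% of 32851 mouse promoters hold. The members' share rests in part on related promoters, such as those of Cyp2b, that are not independent of each other. The promoters of Cyp2b9 and Cyp2b10 are shown because these genes carry most of the subfamily's counts. They are given on the plus strand (RefSeq, GRCm38.p6; chr7:26173159-26173458 for Cyp2b9 and chr7:25897408-25897707 for Cyp2b10), with the motif in capitals, at -180 in Cyp2b9 and at -58 in Cyp2b10. A match of letters is not a binding site, and binding of CHOP was not tested. Neither promoter holds the C/EBP-ATF motif. Of the 37 tested members with a promoter sequence, 11 hold the motif (29.7%), and they went both ways. Cyp2a4, Cyp2a5, Cyp2b9, Cyp2b10 and Cyp2b13 had a log2 fold change below 0. Cyp2c37, Cyp2c40, Cyp2c67, Cyp2c69, Cyp3a25 and Cyp4f14 had one above 0. A link between motif and change was not tested.
Cyp2b9: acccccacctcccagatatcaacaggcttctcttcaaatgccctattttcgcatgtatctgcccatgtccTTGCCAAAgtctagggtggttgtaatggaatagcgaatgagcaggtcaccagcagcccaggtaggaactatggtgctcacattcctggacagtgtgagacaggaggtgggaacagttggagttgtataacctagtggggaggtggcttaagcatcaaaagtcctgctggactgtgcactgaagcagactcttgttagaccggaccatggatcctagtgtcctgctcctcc
Cyp2b10: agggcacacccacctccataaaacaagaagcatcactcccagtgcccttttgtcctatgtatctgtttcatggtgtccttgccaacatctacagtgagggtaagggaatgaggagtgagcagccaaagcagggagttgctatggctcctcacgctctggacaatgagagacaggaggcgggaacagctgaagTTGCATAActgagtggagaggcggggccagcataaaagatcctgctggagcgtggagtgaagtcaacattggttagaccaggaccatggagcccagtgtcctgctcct

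Over the promoters of all members, the other motifs searched were also counted, on both strands. The HNF4 motif CAAAGTCCA was found in 15.4% of the 65 promoters and 0.475% of all mouse promoters. Its 10 members include the tested genes Cyp2c40, Cyp2c67, Cyp2c68, Cyp2c69, Cyp2c70 and Cyp3a11. The others, Cyp2c65, Cyp3a16, Cyp3a41a and Cyp3a41b, had no counts in any library. All 10 are Cyp2c or Cyp3a genes, so the share rests on related promoters that are not independent of each other. The TATA motif TATAAA was found in 44.6% of members and 13.6% of all promoters, and may lie anywhere in the window. The STAT5 motif TTCNNNGAA was found in 6.15% of members and 8.3% of all, and the C/EBP-ATF motif in 1.54% and 0.895%. Cyp4v3 held none of these motifs in its window.

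Of the 4 Cyp2a genes, all tested, 3 lay below 0 and 1 above, and none passed. Cyp2a5, the coumarin hydroxylase, had 334, 297, 544 and 863 CPM in PiZ/Chop-/- libraries 1 to 4, against 423, 730, 828 and 1010 CPM in PiZ libraries 1 to 4 (-0.55, SE 0.35, adjusted p = 0.541, edgeR). Cyp2a22 had 19.0, 23.0, 26.8 and 45.2 CPM in PiZ/Chop-/- libraries 1 to 4, against 106, 47.1, 51.4 and 51.7 CPM in PiZ libraries 1 to 4. Its groups did not overlap, with PiZ library 1 far above the rest (-1.15, SE 0.31, adjusted p = 0.111); DESeq2 called it (adjusted p = 0.0429). Cyp2a4, a female-biased testosterone hydroxylase, had 44.6, 72.4, 151 and 151 CPM in PiZ/Chop-/- libraries 1 to 4, against 87.3, 253, 260 and 208 CPM in PiZ libraries 1 to 4 (-0.95, SE 0.46, adjusted p = 0.418). Cyp2a12 lay at 0.33 (adjusted p = 0.468). At the 3' end 23.7% of the stretches of Cyp2a4 are shared with another gene, and Cyp2a22 overlaps the pseudogene Cyp2a21-ps on the opposite strand, which had 100 counts.

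Cyp1a2, a pericentral enzyme that metabolizes caffeine and aromatic amines, was the tested member of family 1. It had 1873, 1033, 1712 and 1371 CPM in PiZ/Chop-/- libraries 1 to 4, against 637, 1123, 1113 and 888 CPM in PiZ libraries 1 to 4. PiZ/Chop-/- library 2 overlapped the PiZ range, and the other libraries of its group lay above it (log2 fold change 0.67, SE 0.24, adjusted p = 0.239, edgeR). Cyp1a1 and Cyp1b1, which Ahr ligands induce, had 1 and 4 counts in all.

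In Cyp2d all 5 tested genes were above 0, and none passed. Cyp2d9, a male-biased testosterone hydroxylase, had 1020, 1045, 936 and 889 CPM in PiZ/Chop-/- libraries 1 to 4, against 390, 1001, 831 and 827 CPM in PiZ libraries 1 to 4, so that PiZ library 1 was far below the others (0.35, SE 0.24, adjusted p = 0.576). Cyp2d22 had 101, 92.5, 119 and 136 CPM in PiZ/Chop-/- libraries 1 to 4, against 62.7, 90.8, 80.1 and 89.7 CPM in PiZ libraries 1 to 4 (0.47, SE 0.19, adjusted p = 0.315). Cyp2d10 lay at 0.26, Cyp2d26 at 0.37 and Cyp2d40 at 0.57. Cyp2d summed to 2498 ± 162 CPM in PiZ/Chop-/- and 1976 ± 478 CPM in PiZ livers (SD, n = 4 each).

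Several subfamilies are represented by 1 or 2 tested genes. Cyp2e1, the ethanol and acetaminophen oxidizing enzyme of pericentral hepatocytes, had 1159, 966, 1551 and 1541 CPM in PiZ/Chop-/- libraries 1 to 4, against 1022, 1108, 1167 and 1384 CPM in PiZ libraries 1 to 4 (0.16, SE 0.21, adjusted p = 0.793). Cyp2f2, a periportal enzyme that activates naphthalene, had 956, 924, 760 and 906 CPM in PiZ/Chop-/- libraries 1 to 4, against 402, 770, 561 and 984 CPM in PiZ libraries 1 to 4 (0.38, SE 0.24, adjusted p = 0.533). Both overlapped between groups. Cyp2j5, an epoxygenase, had 428, 471, 359 and 372 CPM in PiZ/Chop-/- libraries 1 to 4, against 302, 300, 306 and 306 CPM in PiZ libraries 1 to 4. The PiZ libraries were nearly level and all PiZ/Chop-/- libraries lay above them (0.42, SE 0.17, adjusted p = 0.304), while Cyp2j6 lay at -0.13. Cyp2u1, a fatty acid hydroxylase, had 95.2, 67.8, 46.2 and 62.0 CPM in PiZ/Chop-/- libraries 1 to 4, against 14.8, 29.6, 38.6 and 55.1 CPM in PiZ libraries 1 to 4 (0.96, SE 0.33, adjusted p = 0.238). Cyp2r1, which hydroxylates vitamin D in the liver, stood at 9.08 ± 1.1 CPM in PiZ/Chop-/- and 9.82 ± 0.836 CPM in PiZ livers (SD, n = 4 each; -0.11, SE 0.29, adjusted p = 0.915).

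Cyp4a transcripts, which took 20% of all member counts, differed widely between libraries of a group in most of its genes. Cyp4a12a, a male-biased enzyme that makes the hydroxylated arachidonic acid HETE, had 2395, 1873, 635 and 691 CPM in PiZ/Chop-/- libraries 1 to 4, against 113, 1285, 1603 and 770 CPM in PiZ libraries 1 to 4 (0.57, SE 0.81, adjusted p = 0.821, edgeR). Without PiZ libraries 1 and 4 the sign turned (-0.04). The close copy Cyp4a12b followed the same libraries (0.73, SE 0.71, adjusted p = 0.724), with 5.16 to 5.83 counts of Cyp4a12a for each of Cyp4a12b in PiZ/Chop-/- and 4.26 to 6.8 in PiZ livers. Their 3' ends share 32.6% of the stretches of the read length. The PPAR-alpha targets Cyp4a10 and Cyp4a14, fatty acid hydroxylases, did not pass (0.22, SE 0.34, and 0.53, SE 0.53). Cyp4a10 had 944, 913, 739 and 777 CPM in PiZ/Chop-/- libraries 1 to 4, against 703, 948, 1002 and 252 CPM in PiZ libraries 1 to 4. Cyp4a14 had 484, 478, 595 and 215 CPM in PiZ/Chop-/- libraries 1 to 4, against 639, 205, 266 and 121 CPM in PiZ libraries 1 to 4. For Cyp4a10 the PiZ/Chop-/- libraries lay close together and inside the PiZ range, and for Cyp4a14 libraries were spread in both groups; PiZ library 4 was the lowest PiZ library for both genes.

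Cyp4f summed to 252 ± 6.38 CPM in PiZ/Chop-/- and 201 ± 32.2 CPM in PiZ livers (SD, n = 4 each), higher in every PiZ/Chop-/- library, an order lost with library size as the only scaling. Cyp4f15 had 62.7, 70.7, 74.0 and 67.1 CPM in PiZ/Chop-/- libraries 1 to 4, against 41.8, 37.9, 56.9 and 38.9 CPM in PiZ libraries 1 to 4 (0.64, SE 0.20, adjusted p = 0.17). Cyp4f14, which hydroxylates leukotriene B4, had 153, 139, 128 and 142 CPM in PiZ/Chop-/- libraries 1 to 4, against 91.6, 101, 120 and 171 CPM in PiZ libraries 1 to 4 (0.21, SE 0.20, adjusted p = 0.705). Cyp4f15 did not overlap between groups and Cyp4f14 did, through PiZ library 4. Cyp4f13 (0.26) and Cyp4f16 (0.08) did not pass.

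**Figure D3:**
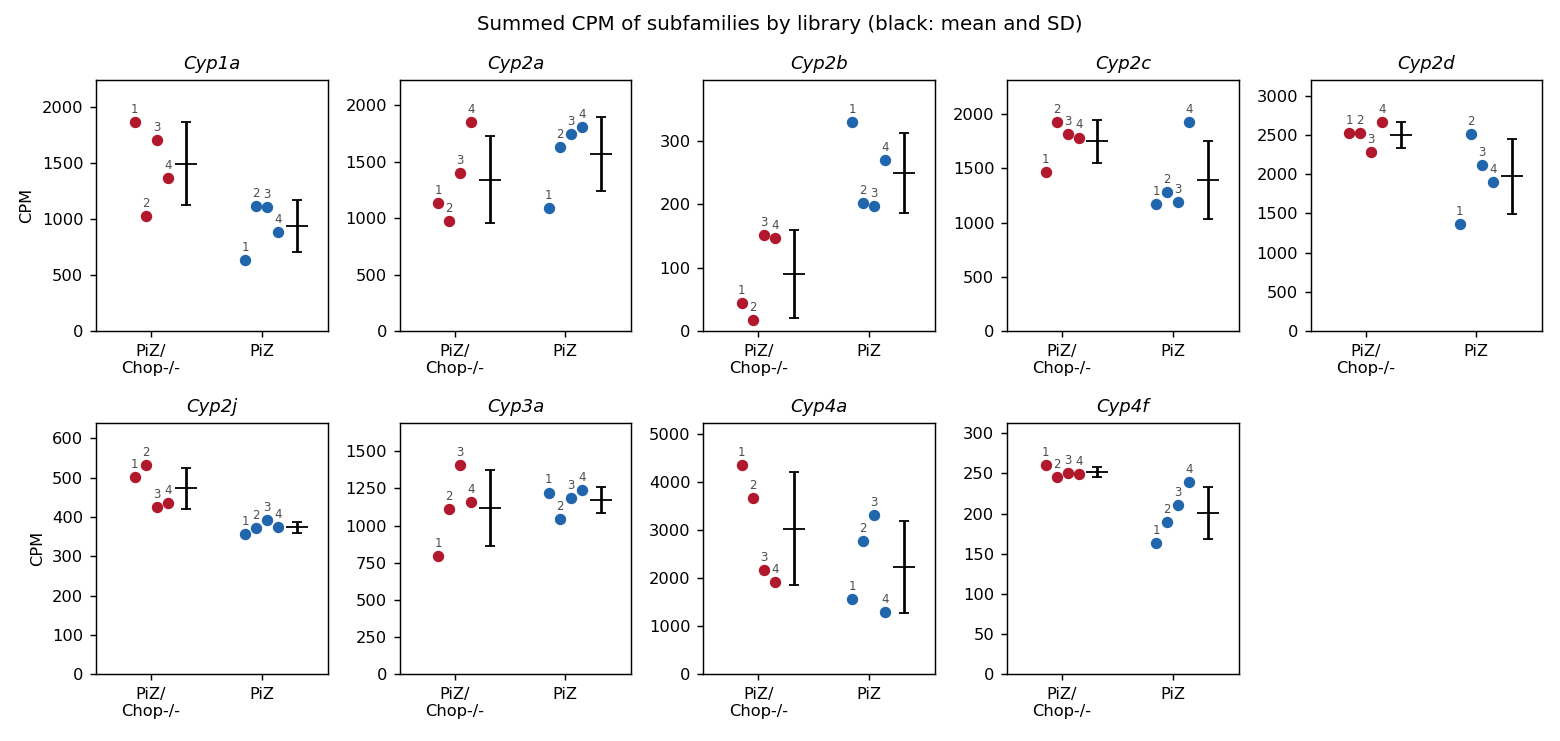
Summed level in CPM of all members of 9 subfamilies in each library, PiZ/Chop-/- left of PiZ in each panel, with the mean ± SD (n = 4 each). The Cyp2b sum is lower in every PiZ/Chop-/- library, the Cyp2j and Cyp4f sums are higher in every one, and the other sums overlap.

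Sex-biased members varied between libraries of the same group. The 4 members listed as male-biased, Cyp4a12a, Cyp4a12b, Cyp2d9 and Cyp2u1, were above 0 and none passed (median log2 fold change 0.65). Of 12 members listed as female-biased, among them Cyp2b10, Cyp4a10 and Cyp4a14 beside the genes above, 9 were tested. Of these 9, Cyp3a44 was called lower, 5 were below 0 and 4 above, and the median was -0.78, against -0.0016 over all tested genes. Cyp3a44 had enough counts in the PiZ libraries alone, and without it the other 8 split into 4 below and 4 above 0, with a median of -0.28. PiZ/Chop-/- libraries 1 and 2 were the highest of their group for all 4 members listed as male-biased, and the lowest for Cyp2b9, Cyp2b13 and Cyp2a4. PiZ library 1 was the lowest of its group for the same 4 male-biased members and the highest for Cyp2b9 and Cyp2b13. Other genes listed as female-biased shared this order in part or not at all. Cyp2c40 was lowest in PiZ/Chop-/- libraries 1 and 2 within their group, but not highest in PiZ library 1. Cyp3a44 and Cyp4a14 were highest in PiZ library 1 within its group, without being lowest in both PiZ/Chop-/- libraries 1 and 2. Cyp2b10 and Cyp2c69 showed neither. Cyp2a4 was lowest in PiZ library 1 within its group (87.3 CPM, against 208 to 260 CPM in the other PiZ libraries), and Cyp4a10 was highest in PiZ/Chop-/- libraries 1 and 2 within theirs.

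**Figure D4:**
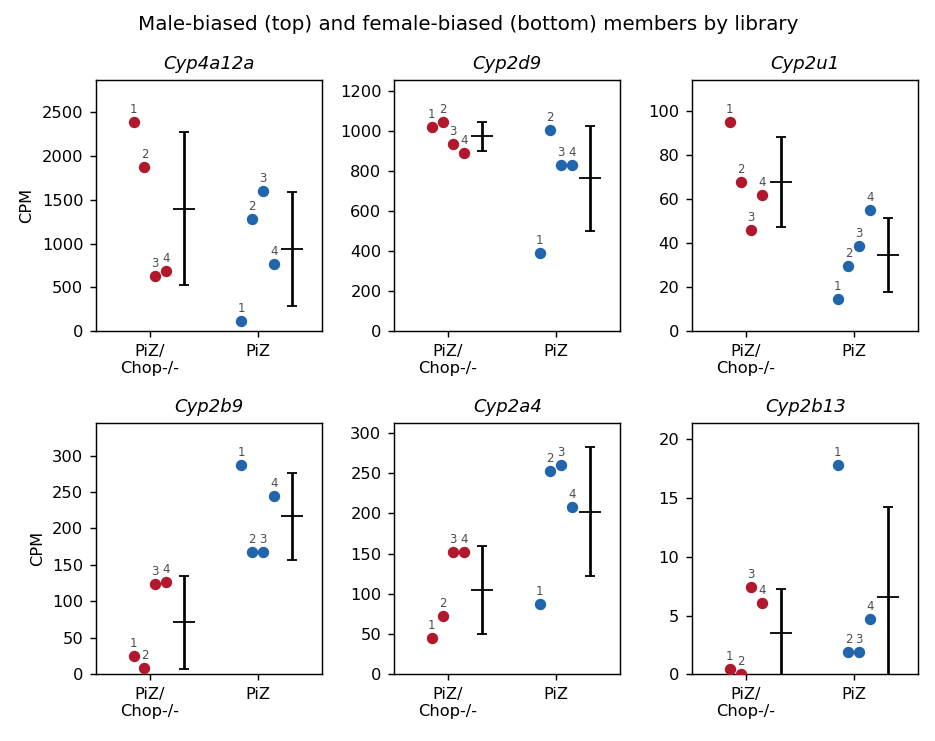
Level in CPM in each library of Cyp4a12a, Cyp2d9 and Cyp2u1 (top) and of Cyp2b9, Cyp2a4 and Cyp2b13 (bottom), PiZ/Chop-/- left of PiZ, with replicate numbers beside the points and the mean ± SD (n = 4 each; whiskers cut off at 0 for Cyp2b13). The bottom row shows 3 of the 9 tested genes listed as female-biased, chosen with their values known. PiZ library 1 is the lowest PiZ point in each top panel (113 CPM for Cyp4a12a) and also for Cyp2a4 (87.3 CPM), and it is the highest for Cyp2b9 and Cyp2b13, while PiZ/Chop-/- libraries 1 and 2 are the lowest points of their group in each bottom panel.

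Grouped by the receptor that drives them or by their place in the lobule, the members gave no further call. Of 8 CAR and PXR targets 7 were tested, 5 above 0 and 2, Cyp2b10 and Cyp2c55, below (median 0.32). Of 4 PPAR-alpha targets 3 were tested, 2 above 0 and 1 below (median 0.22). All 8 pericentral members were tested, 7 above 0 and 1 below (median 0.36), and the periportal member Cyp2f2 lay at 0.38. Over all tested genes the median was -0.0016.

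Of 12 regulators of these genes none passed, and 10 were above 0 (median 0.15). Nr1i3, which encodes CAR, had 177, 76.4, 257 and 226 CPM in PiZ/Chop-/- libraries 1 to 4, against 105, 123, 101 and 78.3 CPM in PiZ libraries 1 to 4. PiZ/Chop-/- library 2 was below the lowest PiZ library and the other libraries of its group were above all PiZ libraries (log2 fold change 0.86, SE 0.30, adjusted p = 0.258, edgeR). Without PiZ/Chop-/- library 2 it passed (1.12, adjusted p = 0.0143). Arnt, the partner of Ahr, had -0.91 (SE 0.33, adjusted p = 0.253). Nr1i2 (PXR; 0.16, SE 0.32), Ahr (0.11, SE 0.32) and Ppara (0.34, SE 0.43) did not pass either, and the sign of each turned in at least 1 fit with libraries left out. Ghr, the growth hormone receptor, was called higher, alone among 9 tested genes of the growth hormone axis. It had 129, 119, 145 and 162 CPM in PiZ/Chop-/- libraries 1 to 4, against 67.0, 59.8, 84.6 and 67.9 CPM in PiZ libraries 1 to 4. Its groups did not overlap (0.99, SE 0.18, adjusted p = 0.0139). Leaving out PiZ/Chop-/- library 3 (adjusted p = 0.0578) or 4 (0.0653) or PiZ library 2 (0.058) ended the call. Of the 9 genes, 6 lay above 0 and 3 below. Onecut1, among the 6, had 138, 149, 92.8 and 183 CPM in PiZ/Chop-/- libraries 1 to 4. In PiZ libraries 1 to 4 it had 20.9, 73.4, 15.4 and 10.4 CPM. Onecut1 was higher in every PiZ/Chop-/- library without passing (2.23, SE 0.60, edgeR adjusted p = 0.185).

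Of 6 electron donors and their partners none passed, 3 above 0 and 3 below. Por, which passes electrons to every microsomal P450, had 162, 142, 370 and 250 CPM in PiZ/Chop-/- libraries 1 to 4, against 345, 427, 359 and 265 CPM in PiZ libraries 1 to 4 (-0.59, SE 0.27, adjusted p = 0.367). PiZ/Chop-/- library 3 lay within the PiZ range and the other libraries of its group below it. Pgrmc2, a haem-binding partner of P450s, lay at 0.18 (adjusted p = 0.733). Of 11 tested genes of haem metabolism none passed, 4 above 0 and 7 below (median -0.02). Alas1, the rate-limiting enzyme of haem synthesis, had 153, 129, 591 and 631 CPM in PiZ/Chop-/- libraries 1 to 4, against 80.0, 116, 105 and 97.3 CPM in PiZ libraries 1 to 4. Every PiZ/Chop-/- library was above every PiZ library, libraries 3 and 4 by far (1.91, SE 0.56, adjusted p = 0.214), and the gene passed without PiZ/Chop-/- library 2 (2.20, adjusted p = 0.023) and with DESeq2 (adjusted p = 0.00124). Blvrb, biliverdin reductase B, had 146, 178, 157 and 211 CPM in PiZ/Chop-/- libraries 1 to 4, against 277, 277, 257 and 283 CPM in PiZ libraries 1 to 4. It was lower in every PiZ/Chop-/- library without passing (-0.66, SE 0.18, adjusted p = 0.0906), and DESeq2 called it (adjusted p = 0.012). Of 8 tested P450s outside families 1 to 4 Cyp7a1 was called, lower in PiZ/Chop-/- livers. This rate-limiting enzyme of bile acid synthesis had 86.9, 63.8, 86.9 and 114 CPM in PiZ/Chop-/- libraries 1 to 4, against 404, 314, 295 and 204 CPM in PiZ libraries 1 to 4 (-1.79, SE 0.23, adjusted p = 0.000758).

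The 34 members that were not tested divide into 12 with a few counts and 22 with none. The highest total among the 12 was 90 counts over all libraries, for Cyp4b1, and Cyp2g1 and Cyp2j9 followed with 42 and 34. The 22 include 5 Cyp2j genes, Cyp2c65 and Cyp2c66, Cyp3a16, Cyp3a57, Cyp2t4, Cyp2w1 and Cyp4x1. Of the 22, 16 share no stretch of the read length with another gene at the 3' end. At these depths a low level is not detectable and is not shown to be absent.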

How the data were processed

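The data were 8 libraries of liver RNA, 4 PiZ/Chop-/- and 4 PiZ, read from one end over 75 bases with the QuantSeq 3' kit, per the labels' protocols. Groups come from the sample titles; the files of the samples titled PiZ are themselves marked CTR, a mark the labels do not explain. Per the file headers, each deposited value is a raw count of reads for a gene. The submitters' processing notes name STAR, HTSeq and mm10. The annotation, the strand setting and the treatment of duplicates and of reads with several matches were not given in the sources used here. Depth therefore limits counting error only. Of 52550 mouse IDs 52403 were found in GENCODE M21, which gave symbols and positions and may not be the authors' release. The test was edgeR 4.0.16 (R 4.3.3). The filter filterByExpr (minimum count 10) kept 8669 genes, scaled by TMM and fitted with glmQLFit (robust) without covariates, p-values being adjusted by Benjamini-Hochberg over all of them. The SE is the log2 fold change over the square root of F. Ddit3 also had an exact permutation test over the 70 assignments.

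Members and gene lists were chosen with earlier results of these data known. By rule the text names every called member, the tested member of highest mean CPM in each subfamily, the 8 members of lowest p that missed the threshold, in each list outside the members the called genes or else the 2 of lowest p, and Ddit3, SERPINA1, Por, Nr1i2, Nr1i3, Ahr and Ppara. Other names were added to complete a subfamily or list, with values seen. Alternatives were RLE, upper quartile and library size scaling, DESeq2 1.42.0 (given the counts without the filter), limma-voom (limma 3.58.1), other filters, a fit without the robust option, omission of the 20 most abundant genes, a replicate block and libraries left out.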

Additional observations from a re-analysis of the deposited data

Results flagged for a closer look

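In 7 of 110 groups of 4 libraries examined, 1 library stood apart from the other libraries of its group by Dixon's criterion, which chance meets in about 1 in 20 groups. In PiZ/Chop-/- livers these were library 1 for Cyp2c29, low at 425 CPM beside 624 to 644 CPM, library 2 for Cyp2c70, high at 659 CPM beside 437 to 473 CPM, and library 1 for the sum of all members, high at 15333 CPM beside 14158 to 14295 CPM. In PiZ livers, library 1 was high for Cyp2a22, at 106 CPM beside 47.1 to 51.7 CPM, and library 2 was high for Cyp4f13, at 45.2 CPM beside 25.2 to 28.5 CPM. PiZ library 4 was high for Cyp2c54, at 110 CPM beside 68.5 to 73.8 CPM, and for the Cyp2c sum, at 1928 CPM beside 1169 to 1284 CPM.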

How the results depend on the processing

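The number of genes called among all tested, 89, was 209 with DESeq2, which was also run without the filter (19847 genes), 357 in edgeR with no filter on low counts and 46 to 169 with 1 library left out. Members called higher, 2, were 1 with library size as the only scaling, 5 with no filter and 1 to 4 with 1 library left out. Members called lower, 1, were 3 with DESeq2 (no filter either), 3 in edgeR with no filter and 1 to 2 with 1 library left out. With no filter the added members were Cyp1a2, Cyp2c23 and Cyp2u1, higher, and Cyp2a22 and Cyp2c55, lower. Without PiZ libraries 1 and 4 the fit called Cyp2c23, Cyp2c37 and Cyp2c38 higher and Cyp2c55 lower. The cause was not tested. Cyp2c38 was called in all 19 alternative fits. These fits draw on the same libraries and are not independent, and Cyp2c38 reached the filter level in the PiZ/Chop-/- libraries alone. Log2 fold changes that turned sign were those of Cyp3a11 (-0.030 with library size only; -0.10 to 0.22 with 1 library left out), Ahr (-0.13 to 0.26), Nr1i2 (-0.077 to 0.38; -0.32 without PiZ libraries 1 and 4), and, without PiZ libraries 1 and 4, Cyp4a12a (-0.041) and Ppara (-0.20), which had 0.57 and 0.34 with all libraries. The log2 ratio of the Cyp3a sum, -0.07, ran from -0.20 to 0.07 with 1 library left out and was 0.0074 without PiZ libraries 1 and 4, where that of Cyp4a, 0.44, was -0.0015.

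The replicate number gave no pairing: the deviations of same-numbered libraries correlated at 0.046, -0.051, 0.0061 and 0.049. With the replicate block 76 genes were called and members called higher came to 1, Cyp4v3 being at 0.79 (adjusted p = 0.0635). A library held 1650260 to 3064385 counts, which limits genes of few counts such as Cyp3a44 and Cyp2c38.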
